A study of Mus musculus with 9 samples.

Results

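NADPH oxidases are membrane enzymes that pass electrons from NADPH to oxygen and so make superoxide or hydrogen peroxide. Heart RNA-seq counts of 6 genes of this family, Cybb, Cyba, Ncf1, Ncf4, Rac2 and Nox4, were examined. They were chosen by symbol from the 54532 genes of the count table, and all 6 were found. The groups were sham, MIRI and GXNI, with 3 libraries in each and 1 mouse per library. All mice were males of the C57BL/6J strain, wild type, 8 to 10 weeks old. In MIRI (myocardial ischemia/reperfusion injury) the left anterior descending coronary artery was tied for 30 min and the heart was reperfused for 24 h. GXNI mice had the same operation and received Guanxinning injection, a preparation of Chinese herbs, at 9 mL/kg into the tail vein within 10 min of ischemia, whereas MIRI mice received saline. In sham mice the chest was opened and the suture passed but not tied. The MIRI and GXNI mice together are called I/R mice here. All groups therefore share the open-chest operation.

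In phagocytes, Cybb encodes the catalytic subunit NOX2 and Cyba its membrane partner p22phox. The cytosolic subunits encoded by Ncf1 (p47phox) and Ncf4 (p40phox), among others, move to this pair on stimulation, together with the small GTPase encoded by Rac2, which is made mainly in blood cells. Nox4 encodes a separate catalytic subunit that needs p22phox, works without the cytosolic subunits and is found in cells of the heart wall and vessels. In an ischemic heart, phagocytes that enter the tissue bring the first complex with them.

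The labels name cardiomyocytes as the cell type, but the RNA was taken from heart tissue. The summed level of 4 genes carried by all leukocytes (Ptprc, Cd53, Laptm5 and Coro1a) was 90.1 to 107 CPM (the usual library-scaled read count, here with TMM factors) in sham, and endothelial and fibroblast markers were also present in every library. Whole tissue is therefore described. In such samples, fewer cells of a type and less RNA per cell cannot be told apart. Total counts were 17119454 to 22811295 a library, so that 3 counts corresponded to 0.132 to 0.175 CPM. No library was a repeat of another.

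The labels of 2 libraries are in doubt, and this bears on every comparison that separates MIRI from GXNI. Over genes above a minimum mean count, MIRI 2 was most like GXNI 1 (Spearman's rho 0.981) and GXNI 3 was most like MIRI 3 (rho 0.987). However, GXNI 2 was most like MIRI 1 (rho 0.980) and GXNI 1 most like sham 1 (rho 0.984), so likeness alone does not settle the labels. The fold changes in the supplementary tables of the study follow from these counts when the labels of MIRI 2 and GXNI 3 are exchanged, and not when they are left as deposited. Results are given first by the deposited labels, then without the doubtful libraries, then with the pair exchanged. The comparison of all I/R mice with sham does not depend on which of the I/R labels is right.

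The genes lie on 5 chromosomes of the mouse genome (GRCm38, GENCODE M21) and all are protein coding. Cybb is at chrX:9435252-9487771 on the reverse strand, Cyba at chr8:122424776-122432930 on the reverse strand and Ncf1 at chr5:134220053-134229625 on the reverse strand. Chromosome 15 carries Ncf4 at chr15:78244801-78262580 on the forward strand and Rac2 at chr15:78559167-78572783 on the reverse strand. Nox4 is at chr7:87246096-87398710 on the forward strand. Exons of Ncf1 overlap those of Gtf2ird2 on the other strand, and without a known strand setting their shared reads cannot be told apart. Gtf2ird2 had 6.06 to 8.10 CPM in all libraries.

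RefSeq promoter windows (GRCm38.p6, 250 bases before to 50 after the start) were given for 4 of the 6 genes, Cybb, Cyba, Ncf1 and Nox4. The windows of Cybb and Nox4 are shown because these genes encode the catalytic subunits of the phagocyte complex and of the separate oxidase. Their levels in I/R mice also lay differently beside sham, but the call of Nox4 is not read as a result. Capitals mark matches to the motifs searched on both strands, namely GAGGAA for PU.1-type factors and TGANTCA for AP-1. The Cybb window is chrX:9469275-9469574 on the reverse strand and the Nox4 window chr7:87246399-87246698 on the forward strand.
Cybb: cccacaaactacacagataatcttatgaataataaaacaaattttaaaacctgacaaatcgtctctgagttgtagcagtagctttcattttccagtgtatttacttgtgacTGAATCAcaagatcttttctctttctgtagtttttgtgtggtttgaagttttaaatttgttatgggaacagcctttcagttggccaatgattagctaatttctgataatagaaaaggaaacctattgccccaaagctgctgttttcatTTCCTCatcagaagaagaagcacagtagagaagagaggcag
Nox4: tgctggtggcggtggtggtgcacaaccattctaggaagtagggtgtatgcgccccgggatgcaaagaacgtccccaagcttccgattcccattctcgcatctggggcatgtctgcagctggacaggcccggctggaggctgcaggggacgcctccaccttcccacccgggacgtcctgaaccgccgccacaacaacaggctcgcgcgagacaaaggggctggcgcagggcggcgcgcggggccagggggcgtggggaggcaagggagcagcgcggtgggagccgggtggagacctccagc
The Cybb window had 35.3% G and C and the Nox4 window 68.3%, beside a median of 52.7% over all windows. Cybb held the PU.1-type letters on the other strand, beginning 9 bases after the start, as did 28.3% of all 32817 windows on either strand. The AP-1 letters began 139 bases before its start, a match that 7.81% of windows contained. The windows of Nox4, Cyba and Ncf1 held neither motif, and a match does not show that a factor binds there.

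Per kb of exon in sham, Cyba had the highest level, with 27.1 ± 2.64 CPM per kb (SD, n = 3). Cybb followed with 4.19 ± 0.786, Rac2 with 3.54 ± 0.584, Ncf1 with 3.36 ± 0.701 and Ncf4 with 1.67 ± 0.557 CPM per kb. Cybb, Rac2 and Ncf1 lay within their spread of one another. Nox4 was lowest, with 0.156 ± 0.0862 CPM per kb, from 13 to 39 reads a library.

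The catalytic subunit Cybb showed no shift between sham and I/R mice. Its level was 20.7, 29.5 and 22.9 CPM in sham 1 to 3, then 42.5, 9.85 and 26.3 CPM in MIRI 1 to 3 and 15.2, 22.3 and 36.4 CPM in GXNI 1 to 3. MIRI 1 and GXNI 3 were above all sham libraries, MIRI 2 and GXNI 1 below them, and the others among them. Across the 6 I/R mice the log2 fold change against sham was 0.06 ± 0.40 (SE, edgeR quasi-likelihood test, unadjusted p = 0.877, 95% interval -0.83 to 0.95).

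Cyba, its membrane partner, was above every sham library in 4 of 6 I/R mice. Sham 1 to 3 had 26.1, 31.3 and 27.2 CPM. MIRI 1 to 3 had 54.1, 25.1 and 69.8 CPM and GXNI 1 to 3 had 29.9, 36.1 and 62.0 CPM. MIRI 2 was below all sham libraries, GXNI 1 lay within their range, and the log2 fold change of 0.71 ± 0.32 for I/R mice did not pass the test (edgeR unadjusted p = 0.0517, Benjamini-Hochberg adjusted p = 0.172).

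Ncf1 encodes the organiser subunit that carries the cytosolic complex to the membrane. Sham 1 to 3 had 15.3, 10.5 and 11.2 CPM, and MIRI 1 to 3 had 32.5, 5.82 and 39.8 CPM. GXNI 1 to 3 had 11.9, 20.3 and 37.8 CPM. Levels in MIRI 1, MIRI 3 and GXNI 3 were 2.64, 3.23 and 3.07 times the sham mean, whereas MIRI 2 had 0.473 times that mean. For I/R mice the log2 fold change was 1.01 ± 0.54 (edgeR unadjusted p = 0.092, adjusted p = 0.23).

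Ncf4 encodes the cytosolic subunit that binds a membrane lipid of the phagosome, and its highest library exceeded its lowest by the largest factor among the 5 phagocyte genes. Its level was 3.01, 2.48 and 4.64 CPM in sham 1 to 3, and 14.5, 1.37 and 15.3 CPM in MIRI 1 to 3, with 23 reads in MIRI 2 and 357 in MIRI 3. GXNI 1 to 3 had 2.997, 6.95 and 12.4 CPM. GXNI 2 and GXNI 3 were above every sham library, and GXNI 1 was among them. The log2 fold change for I/R mice was 1.41 ± 0.69 (edgeR unadjusted p = 0.0703, adjusted p = 0.2).

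Rac2 had 9.08, 11.2 and 12.7 CPM in sham 1 to 3, 23.3, 5.34 and 27.6 CPM in MIRI 1 to 3 and 8.74, 14.0 and 21.7 CPM in GXNI 1 to 3. It was above all sham libraries in 4 of 6 I/R mice and below them in MIRI 2 and GXNI 1. The I/R log2 fold change was 0.61 ± 0.46 (edgeR unadjusted p = 0.214).

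Nox4 was the only one of the 6 genes to pass the call rule in I/R mice, and it was lower. Sham 1 to 3 had 2.09, 0.644 and 1.23 CPM (39, 13 and 23 reads), and MIRI 1 to 3 had 0.656, 0.594 and 0.472 CPM (14, 10 and 11 reads). GXNI 1 to 3 had 0.25, 0.443 and 0.348 CPM, that is 5, 9 and 6 reads. Of the I/R mice, 5 of 6 were below every sham library, while MIRI 1 was just above sham 2. The log2 fold change was -1.50 ± 0.41 (95% interval -2.41 to -0.59, edgeR unadjusted p = 0.00424, adjusted p = 0.0876). The call asked for a 1.5-fold change and an unadjusted p of at most 0.01. Nox4 passed the filter on low counts through its sham libraries, where its mean was highest, so its call is not read as a result. Without sham 1, the log2 fold change was -1.01 (edgeR unadjusted p = 0.046, adjusted p = 0.255) and the call was lost. It was also lost without sham 3.

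**Figure D1:**
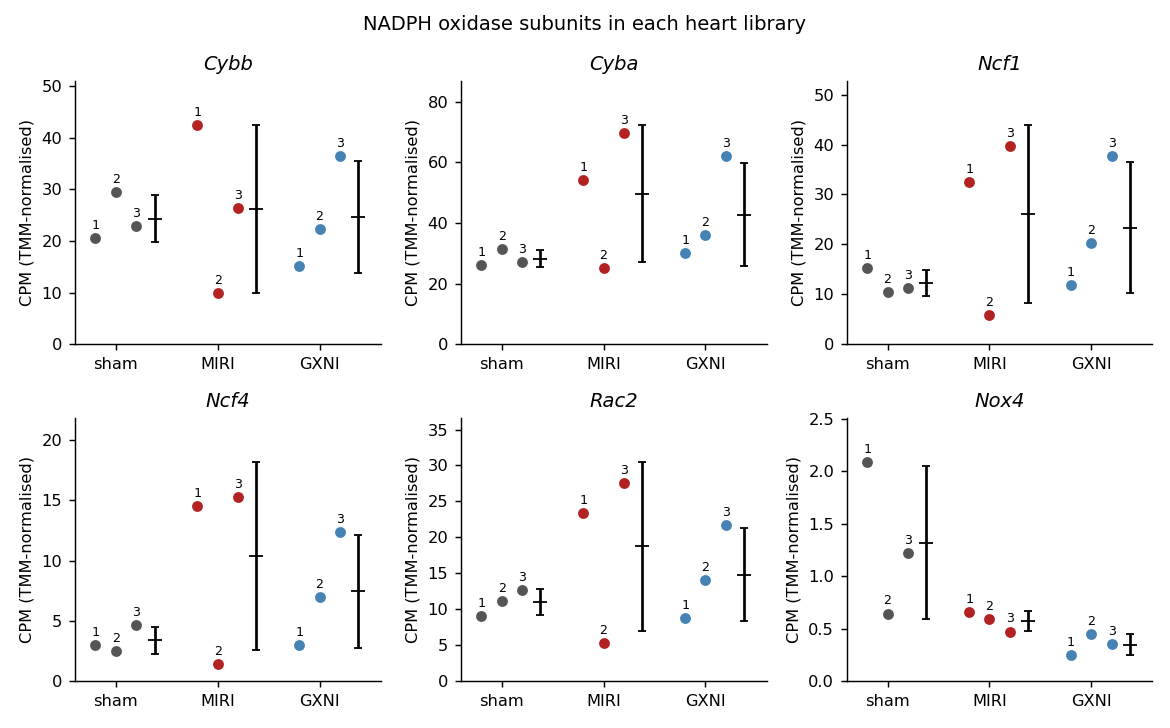
Level of each gene in every library (CPM after TMM scaling, linear axis from 0), by group, with the replicate number beside each point and the group mean ± SD in black (n = 3). For the 5 phagocyte genes MIRI 2 is the lowest of the 9 libraries, and Nox4 is low in all 6 I/R mice.

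In all 5 phagocyte genes MIRI 2 was the lowest of the 9 libraries. In 4 of them (Cyba, Ncf1, Ncf4 and Rac2) the 3 highest libraries were MIRI 1, MIRI 3 and GXNI 3. For Cybb the third highest was sham 2 instead.

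Against sham, then, 0 of the 6 genes were called higher in I/R mice and 1 was called lower, where 8.38% of the 15207 genes tested were called, 5.52% higher and 2.85% lower. The 5 phagocyte genes had a median log2 fold change of 0.71, beside 0.0076 over all genes. At an edgeR adjusted p of at most 0.05, 0.0592% of all genes were called and none of the 6, while Nox4 had an adjusted p of 0.023 by DESeq2. By edgeR 1 of the 6 genes had an unadjusted p under 0.05, beside 4489 of all 15207 genes. By DESeq2 4 had, beside 5224 of 29338 genes. Without MIRI 2, the log2 fold changes of Cyba, Ncf1, Ncf4 and Rac2 were 0.84, 1.21, 1.63 and 0.80, with edgeR unadjusted p from 0.0107 to 0.045, and none was called. Without MIRI 2 and GXNI 3, Nox4 had a log2 fold change of -1.51 (edgeR unadjusted p = 0.0131) and was not called.

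**Figure D2:**
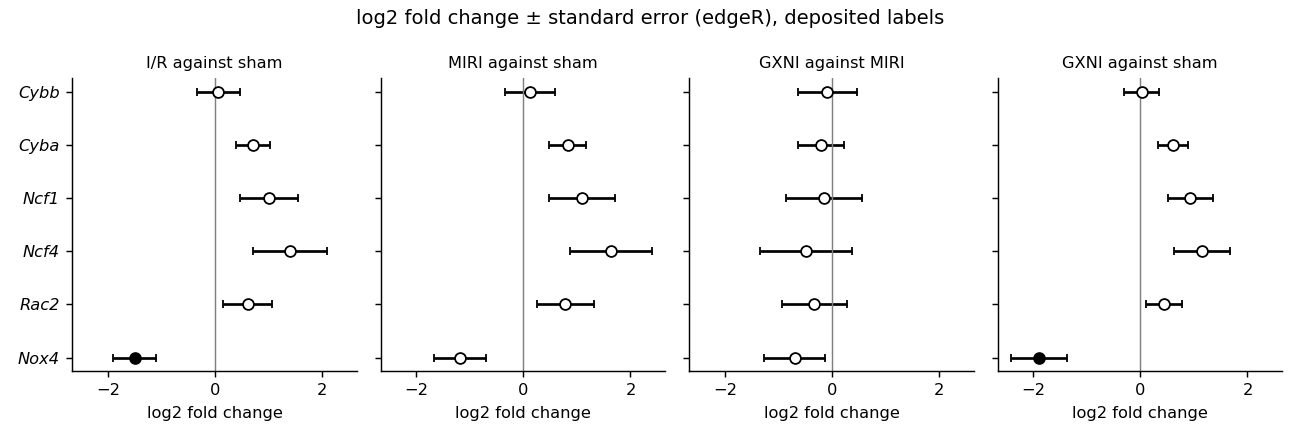
Log2 fold change ± SE (edgeR) of each gene in the 4 comparisons, by the deposited labels, where filled points passed the call rule and open points did not. Nox4 is the only filled point, lower in I/R against sham and in GXNI against sham, and its value in GXNI against MIRI comes from a fit without the filter on low counts.

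MIRI against sham asks what ischemia and reperfusion did without the drug. By the deposited labels, 0 of the 6 genes were called, beside 8.97% of all 14644 genes tested (6.15% higher and 2.82% lower). Cyba had a log2 fold change of 0.83 ± 0.35 (edgeR unadjusted p = 0.049) and Nox4 of -1.19 ± 0.48 (edgeR unadjusted p = 0.0429). These were the 2 genes with an unadjusted p under 0.05, beside 4149 of all 14644 genes. DESeq2 gave 3 such genes, beside 4557 of 27898, and called none of the 6. At an edgeR adjusted p of at most 0.05, 0.0137% of all genes were called and none of these. The MIRI group held both the highest and the lowest library for Cybb, Cyba, Ncf1, Ncf4 and Rac2.

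Leaving out MIRI 2 changed this count. Cyba then rose by 1.14 ± 0.15 on the log2 scale, Ncf1 by 1.56 ± 0.19, Ncf4 by 2.15 ± 0.25 and Rac2 by 1.22 ± 0.17, with adjusted p from edgeR of 0.00152 or less. These 4 of 6 genes were called higher, where 16.9% of all genes were. Cybb had 0.50 ± 0.23 (edgeR unadjusted p = 0.0612) and was not called. With the labels of the pair exchanged, the same 4 genes were called higher, beside 19.2% of all genes, and Cybb had 0.52 ± 0.20 (edgeR unadjusted p = 0.026, a 1.44-fold change, under the threshold). The exchanged grouping is that of the published tables and is not independent evidence.

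GXNI against MIRI asks whether the injection altered these levels after ischemia and reperfusion. With the deposited labels, no difference in the 5 phagocyte genes exceeded the variation among mice. On the log2 scale the difference was -0.08 ± 0.55 for Cybb, -0.21 ± 0.43 for Cyba, -0.15 ± 0.71 for Ncf1, -0.48 ± 0.86 for Ncf4 and -0.33 ± 0.61 for Rac2. None was called, where 0.0203% of all 14762 genes were called and 0% passed an edgeR adjusted p of 0.05. Neither edgeR nor DESeq2 gave any of the 5 an unadjusted p under 0.05. Over all genes, 47 of 14762 had such a p by edgeR and 91 of 28122 by DESeq2. The intervals were wide, from -1.23 to 0.81 for Cyba and from -2.53 to 1.58 for Ncf4. Nox4 had 5 to 9 reads in GXNI and 10 to 14 in MIRI and was under the filter. Its log2 fold change in the fit without the filter was -0.70 (95% interval -1.95 to 0.55), with no call made.

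Without the doubtful pair, 2 GXNI and 2 MIRI libraries remained. Cyba fell by 0.89 ± 0.20 on the log2 scale, Ncf1 by 1.15 ± 0.29, Ncf4 by 1.57 ± 0.40 and Rac2 by 1.15 ± 0.27, and these 4 genes were called lower, where 3.47% of all genes were. Their adjusted p from edgeR lay between 0.188 and 0.193. Cybb had -0.87 ± 0.31 (edgeR unadjusted p = 0.0318) and was not called. With only MIRI 2 left out, none was called, and the log2 fold changes ran from -0.998 for Ncf4 to -0.48 for Cybb. With the pair exchanged, all 5 were called lower, beside 10.7% of all genes, with log2 fold changes from -1.02 for Cyba to -1.88 for Ncf4 and adjusted p from edgeR of 0.0143 to 0.0325. For these 5 genes the calls in this comparison thus changed with the libraries and labels used.

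**Figure D3:**
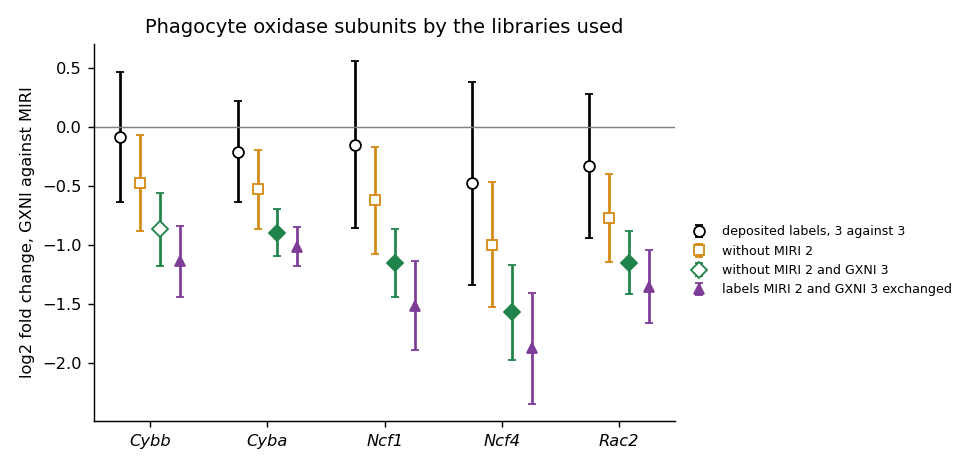
Log2 fold change ± SE (edgeR) of GXNI against MIRI for the 5 phagocyte genes, by the libraries and labels used; filled points passed the call rule. All values by the deposited labels are open and lie between -0.48 and -0.08, and all exchanged values are filled and lie between -1.88 and -1.02.

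GXNI mice were also set against sham, which shares its controls with the other sham comparisons. Here Nox4 fell by 1.90 ± 0.53 on the log2 scale (edgeR unadjusted p = 0.00935, adjusted p = 0.219) and was the 1 gene called of 6. In all, 4.21% of the 14695 genes tested were called, 1.54% lower and 2.67% higher, and 0% at an edgeR adjusted p of 0.05. Nox4 had 5 to 9 reads in GXNI and 13 to 39 in sham. It passed the filter on low counts only through its sham libraries, so this call is not read as a result. The call was lost without sham 1 (-1.40, edgeR unadjusted p = 0.0363), without sham 3 or any 1 GXNI library, and with the pair exchanged (-1.62, edgeR unadjusted p = 0.0171). Cybb had a log2 fold change of 0.026 ± 0.33, Cyba of 0.61 ± 0.28, Ncf1 of 0.93 ± 0.41, Ncf4 of 1.15 ± 0.52 and Rac2 of 0.44 ± 0.34, none of them called. Ncf1 and Ncf4 were called higher without GXNI 1, at 1.25 and 1.53, beside 10.7% of all genes.

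Other subunits and partners of the family were examined beside these 6. Cybc1, the chaperone that stabilises the membrane pair, had 12.3 to 15.9 CPM in sham and 11.9 to 23.7 CPM in I/R mice. Rac1, the widely made relative of Rac2, had 148 to 152 CPM in sham and 157 to 262 CPM in I/R mice. Its log2 fold change of 0.45 ± 0.18 (edgeR unadjusted p = 0.0305) was under the 1.5-fold threshold. Hvcn1, the proton channel that supports the oxidase, had at most 20 reads in any library. The remaining partners Nox1, Nox3, Noxo1, Noxa1, Duox1, Duox2, Duoxa1 and Duoxa2 had 0 to 18 reads and were not tested. Cybc1, Rac1 and Hvcn1 were tested in I/R mice against sham and were not called. Without MIRI 2, Cybc1 rose by 0.63 ± 0.16 and Rac1 by 0.65 ± 0.13 on the log2 scale in MIRI against sham (edgeR adjusted p = 0.0163 and 0.00617).

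All 26 genes that activate the phagocyte oxidase (receptors, kinases, Rac exchange factors and their partners) were tested in I/R mice against sham, and 2 were called higher, beside 5.52% of all genes. The median log2 fold change of the list was 0.96. The count was 7 by DESeq2, beside 1519 of 29338 genes, and 9 by edgeR without MIRI 2, beside 1466 of 15156 genes. Arhgdia, which holds Rac proteins in the cytosol, had 140 to 156 CPM in sham and 177 to 432 CPM in I/R mice (log2 fold change 0.99, edgeR adjusted p = 0.0876). Pla2g4a, the cytosolic phospholipase that frees arachidonic acid, had 2.97 to 3.62 CPM in sham and 4.10 to 13.8 CPM in I/R mice (log2 fold change 1.39, edgeR adjusted p = 0.0927). In MIRI against sham 2 of 26 were called higher, beside 6.15% of all genes, and without MIRI 2 the number was 22, beside 16.9%. In GXNI against MIRI 0 were called by the deposited labels, beside 0.0203% of all genes. Without the doubtful pair 6 were called lower, beside 3.47%, and with it exchanged 13 were, beside 10.7%.

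Of 6 other oxidant-producing enzymes, 4 were tested in I/R mice against sham and 1 was called lower, beside 2.85% of all genes. Xdh, which makes superoxide during purine breakdown, had 281 to 285 CPM in sham and 86.5 to 229 CPM in I/R mice (log2 fold change -0.83, edgeR adjusted p = 0.0937). The call was lost without MIRI 2 (-0.77, edgeR unadjusted p = 0.0162) and without MIRI 2 and GXNI 3 (-0.73, edgeR unadjusted p = 0.0319). Spi1, which encodes PU.1, had 15.1 to 20.5 CPM in sham, 37.4, 8.25 and 39.2 CPM in MIRI 1 to 3 and 11.5, 21.7 and 38.0 CPM in GXNI 1 to 3. Its log2 fold change in I/R mice was 0.62 (edgeR unadjusted p = 0.23). These lists were not chosen independently of the data.

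The 4 genes carried by all leukocytes had their high and low libraries in common with most of the phagocyte genes. The summed neutrophil and macrophage markers were ordered differently, but several single markers were not. The summed level of Ptprc, Cd53, Laptm5 and Coro1a was 268, 50.1 and 296 CPM in MIRI 1 to 3 and 97.2, 128 and 281 CPM in GXNI 1 to 3. The lowest library and the 3 highest were those of Cyba, Ncf1, Ncf4 and Rac2. The summed level of 14 neutrophil markers was 154 to 205 CPM in sham, 233 to 1051 CPM in MIRI and 627 to 727 CPM in GXNI, with Lcn2 alone at 125 to 578 CPM, Mpo and Elane at 0 or 1 read and Ly6g at 1 to 19 reads. The neutrophil sum was lowest in sham 2 and was 627 CPM in GXNI 1, where the 5 phagocyte genes together had 68.8 CPM. Of that sum, Lcn2 alone had 578 CPM. S100a8, S100a9, Csf3r, Cxcr2, Mmp8, Mmp9 and Retnlg each had MIRI 1, MIRI 3 and GXNI 3 as their 3 highest libraries. Ly6g, Ngp and Ltf did so at few reads, and Lcn2, Camp, Mpo and Elane did not. MIRI 2 was the lowest library for S100a8, Csf3r, Cxcr2, Mmp8 and Mmp9. Ltf had 0 reads in every sham library and 1 to 26 in I/R mice, so it passed the filter on low counts only through the I/R mice, and its call is not read as a result. The summed level of 14 monocyte and macrophage markers was 717 to 817 CPM in sham and 542 to 951 CPM in I/R mice, with none of the 14 at 0 and 0 called. This sum was highest in GXNI 1, at 951 CPM, but not each of its genes. Ccr2, Ly6c2 and Fcgr1 had MIRI 1, MIRI 3 and GXNI 3 as their 3 highest libraries and MIRI 2 as the lowest. Cd68 had the same 3 highest but was lowest in sham 1, and the rest of the list was ordered otherwise. Of the 4 leukocyte genes 0 were called in I/R mice against sham, with a median log2 fold change of 0.89. DESeq2 called 1 of them and 7 of 14 neutrophil markers higher, beside 1519 of 29338 genes. In MIRI against sham without MIRI 2, edgeR called higher 4 of 4 leukocyte genes, beside 16.9% of all genes. It also called 11 of 11 neutrophil markers tested and 4 of 14 macrophage markers. Of these, Ly6g, Ngp and Ltf passed the filter only through MIRI libraries. In GXNI against MIRI without the doubtful pair, edgeR called lower 4 of 4 leukocyte genes and 1 of 14 macrophage markers, beside 3.47% of all genes. With the pair exchanged it called lower 4 of 4 and 3 of 14, beside 10.7%. The part of leukocyte number in these results was not tested.

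The phagocyte genes were also set against Ptprc, which encodes the leukocyte surface protein CD45, within each library. The ratio of Cybb CPM to Ptprc CPM was 1.27 ± 0.169 in sham, 0.972 ± 0.322 in MIRI and 0.951 ± 0.272 in GXNI (SD, n = 3). That of Rac2 was 0.572 ± 0.0713, 0.647 ± 0.138 and 0.573 ± 0.181, and that of Ncf1 0.651 ± 0.181, 0.841 ± 0.195 and 0.855 ± 0.222. MIRI 2, low in every phagocyte gene, had the highest Cyba ratio of all libraries, 3.38. These ratios are a description and carry no test.

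**Figure D4:**
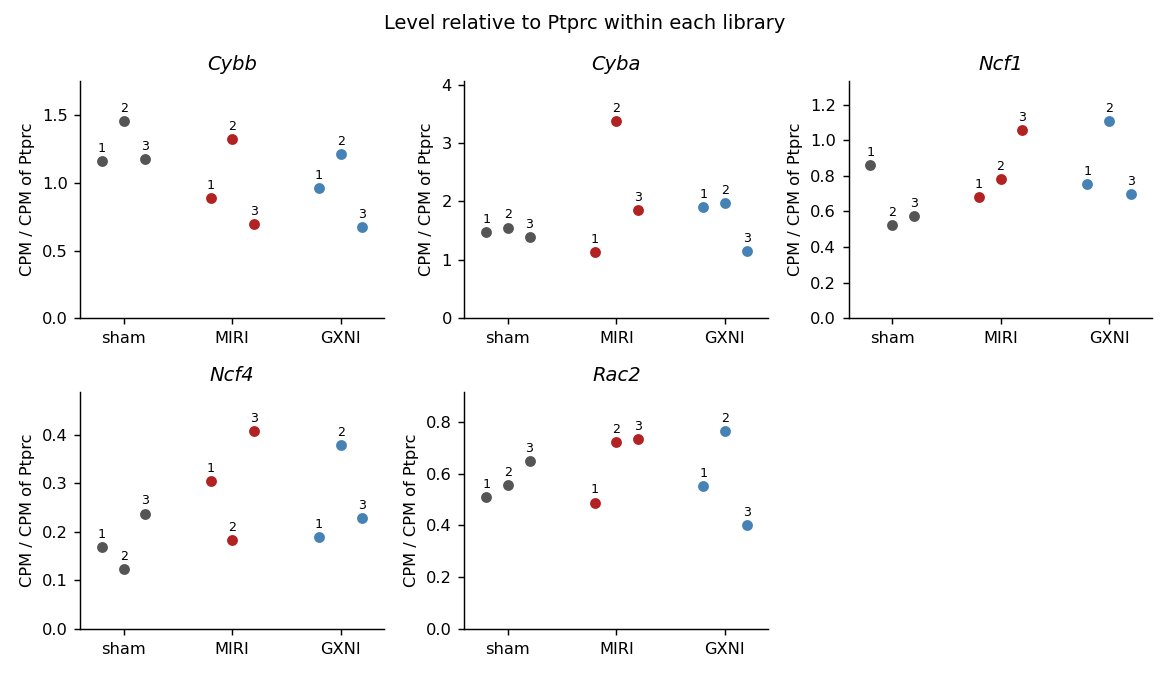
CPM of each of the 5 phagocyte genes divided by the CPM of Ptprc in the same library (linear axis from 0), by group, with the replicate number beside each point. Ratios of Cybb are 1.16 to 1.46 in sham and 0.674 to 1.33 in I/R mice, and MIRI 2 has the highest ratio for Cyba.

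Likeness of pattern was measured as the root mean square difference of log2 CPM over the 9 libraries after centring each gene, among 13438 genes with a mean of at least 1 CPM. The 5 genes nearest to Cybb were Tlr1 (0.219 log2 units), Ptpn6 (0.221), Myo1g (0.227), Slamf7 (0.23) and Ikzf1 (0.232). Those nearest to Nox4 were Racgap1 (0.182 log2 units), Zfp955b (0.263), Pcsk4 (0.265), Gm10222 (0.288) and Cdc45 (0.294). Nox4 itself had a mean of 0.747 CPM, under that minimum and near the 0.5 CPM added before the log. All its distances are therefore rough. Among the 6 genes themselves Cyba and Rac2 were nearest to each other, at 0.294 log2 units, and Ncf4 and Nox4 farthest apart, at 1.30. Nox4 was at least 0.792 log2 units from each of the other 5.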

How the data were processed

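Counts per gene were those deposited for heart tissue of 3 sham, 3 MIRI and 3 GXNI mice. The authors aligned reads with HISAT2 and counted them with featureCounts of Subread, on mm10 per the submitters' processing notes. Versions, annotation release and strand setting are not given in the sources used here. The counts are whole numbers without normalization. Of 54532 identifiers, 54409 matched a symbol of GENCODE M21 (GRCm38) and 123 did not. 0 columns of other samples were present.

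Each comparison was fitted over all genes on its own libraries with edgeR 4.0.16 in R 4.3.3 (TMM, default filter on low counts, quasi-likelihood F test, no covariates). Calls required a 1.5-fold difference together with a p of 0.01 or below before adjustment, as in the study. The SE is the log2 fold change divided by the square root of F, and 95% intervals use the degrees of freedom of that test. The limit of 3 counts covers counting error only. Nearest patterns used a prior of 0.5 CPM. The mice were separate animals.

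All 6 genes are named, with Cybc1, Rac1 and Hvcn1, list genes called in I/R mice, and the 5 genes nearest to Cybb and to Nox4. Spi1 was named after its values were seen, and some list genes are not reported here. The genes and lists were chosen with earlier results of these data known. Alternatives were RLE, DESeq2 1.42.0, all 9 libraries in 1 fit, no filter, the replicate block, an adjusted p of 0.05, each library left out, and the doubtful pair left out or exchanged. On counts simulated for MIRI against sham with 200 genes changed by 2 log2 units, edgeR called 200 of 200 among 14304 genes and 0.603% of the unchanged genes. DESeq2 called 200 of 200 among 14644 genes and 0.402%. The spread was taken from the sham libraries alone, which differed less from one another than the MIRI libraries did. Changed genes were drawn only from genes with more reads than Nox4. The power to call a change in these data is therefore not known from it.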

Additional observations from a re-analysis of the deposited data

How the results depend on the processing

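For all 6 genes and 4 comparisons, 276 results kept their direction and side of the threshold, 21 changed sign, 19 newly passed the call rule and 13 no longer did. Called lower in I/R against sham, the 1 gene became 0 with an edgeR adjusted p of 0.05 (Nox4 had 0.023 by DESeq2), with the replicate block, and without both MIRI 2 and GXNI 3. Leaving out 1 library gave 0 to 1. Called higher in MIRI against sham, 0 became 4 with the pair exchanged and 0 to 4 on leaving out 1 library. Called lower in GXNI against MIRI, 0 became 4 without the pair and 5 with it exchanged. In GXNI against sham the 1 gene lower became 0 with an adjusted p of 0.05, the replicate block or the exchange, and 0 to 1 on leaving out 1 library, while genes called higher ranged from 0 to 2.

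Signs turned mostly for Cybb. With the replicate block its log2 fold change was -0.017 in I/R against sham, -0.0759 in MIRI against sham, 0.083 in GXNI against MIRI and -0.052 in GXNI against sham, and that of Ncf1 was 0.070 in GXNI against MIRI. With the pair exchanged, GXNI against sham gave -0.62 for Cybb and -0.22 for Rac2. Leaving out 1 library, Cybb ran from -0.14 to 0.23 in I/R against sham, from -0.41 to 0.50 in MIRI against sham, from -0.48 to 0.46 in GXNI against MIRI and from -0.37 to 0.28 in GXNI against sham. In GXNI against MIRI, Cyba ran from -0.58 to 0.11, Ncf1 from -0.68 to 0.28 and Rac2 from -0.77 to 0.044. The cause was not tested.

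The replicate numbers share only a number. Same-number correlations of the libraries' deviations ran from -0.495 to 0.769, and the block gave 0 calls in I/R against sham. Over all genes, edgeR called 840 higher and 434 lower in I/R against sham and DESeq2 1519 and 677. In MIRI against sham edgeR called 900 and 413 and DESeq2 1491 and 760, in GXNI against sham 392 and 226 against 994 and 407, and in GXNI against MIRI 0 and 3 against 4 and 7. At 5 to 39 reads, Nox4 is limited by depth.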
